A study of Mus musculus with 7 samples.

Results

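Penk, Nrn1, C2cd4b, Gpm6b and Ramp1 were followed as 5 genes of the 27998 in the deposited tables, matched by gene symbol, across 7 single-cell RNA-seq libraries of mouse spleen T cells. They were chosen because earlier results of the same data had shown their transcripts in Thpok-deleted cells at day 30 of infection. Their levels in that library and their overlap in its cells belonged to the choice, so both are described here without a test. C57bl/6 mice had received LCMV Arm, a mouse virus that is cleared after an acute infection, and CD44high T cells that bind the GP66:I-Ab tetramer (cells whose receptor sees a viral peptide on MHC class II) were sorted. The Thpok-deleted groups (Ox40-Cre+ Thpokfl/fl RosaYFP+, 1 library at day 30 and 1 at day 7) and the Thpok-sufficient groups (Ox40-Cre+ Thpokwt/wt RosaYFP+, 1 library at day 30 and 1 at day 7) were sorted as YFP+ cells with no CD4 gate named in the labels. The third GP66+ group at day 7 was wild type and carried a CD4 gate. The 2 remaining day 7 libraries, called total here, hold wild type CD44high CD4+ and CD8+ T cells sorted apart and mixed in equal parts. Because the Cre is driven by Ox40, a receptor that T cells put on after activation, the gene is lost in activated cells and every YFP+ library, deleted or sufficient, carries the same Cre and reporter. With 1 library per GP66+ genotype and day, a difference between 2 of them cannot be told apart from a difference between 2 mice or 2 captures, and the labels give neither the number of mice behind a library nor their ages.

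The 7 libraries kept 736 deleted and 725 sufficient cells at day 30, 1319 deleted, 2138 sufficient and 2212 wild type GP66+ cells at day 7, and 6290 and 1964 total cells. The median number of unique transcript molecules (UMIs) per cell was 2440 in deleted and 2017 in sufficient cells at day 30, and lay between 3940.5 and 5900 in the day 7 libraries, so shares of cells with a UMI are not comparable between days without thinning. Zbtb7b, which encodes Thpok, had 1 UMI in each deleted library, against 32 in sufficient cells at day 30, 391 in sufficient cells at day 7 and 388 in wild type cells at day 7. The 4 T cell markers in the files summed to between 1661 and 2794 CPM (UMIs relative to all UMIs of the cells summed) in the GP66+ libraries. Red cell genes stood apart, with 6237 CPM in the deleted day 30 library and between 0.210 and 5.94 CPM in the other GP66+ libraries. Library pairs shared between 1 and 23 cell barcodes.

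Neuropeptides are cut from longer precursor proteins, packed into vesicles and released to act on G protein-coupled receptors of other cells, and T cells are known both to make some of them and to carry some of their receptors. Of the 5 genes, Penk encodes proenkephalin, the precursor of the opioid peptides Met- and Leu-enkephalin, and is known to be made by activated and regulatory T cells of mice. Ramp1 encodes a single-pass membrane protein that joins the receptor Calcrl to form the receptor of the neuropeptide CGRP. The others are not neuropeptides: Nrn1 encodes neuritin, a lipid-anchored surface protein named for its effect on neurites and known from anergic and regulatory helper cells, Gpm6b encodes a 4-pass membrane glycoprotein of the proteolipid family of neurons and glia, and C2cd4b encodes a small protein with a C2 domain, studied mainly in endothelium and pancreatic islets.

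In mouse build GRCm38 as annotated by GENCODE vM21, which is the assembly that mm10 names, the genes lie on 5 chromosomes. Penk lies at chr4:4133531-4138819 on the minus strand, Ramp1 at chr1:91179822-91225196 on the plus strand, Nrn1 at chr13:36725361-36735131 on the minus strand, Gpm6b at chrX:166238911-166388988 on the plus strand and C2cd4b at chr9:67759437-67760930 on the plus strand. No annotated gene overlaps any of them on its own strand. On the opposite strand, C2cd4b overlaps the non-coding gene M5C1000I18Rik, which had 0 UMIs in all 5 GP66+ libraries, and the end of Nrn1 overlaps Fars2, which had 14.5 CPM in deleted and 11.6 CPM in sufficient cells at day 30.

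RefSeq promoter sequences, from 250 bases before to 50 bases after the start site (build GRCm38.p6), were given for 3 of the 5 genes. All 3 are shown, and none was given for Penk or Nrn1. Of the 49 deleted day 30 cells with C2cd4b, 20 also held Gpm6b, and Ramp1 is the receptor gene among the 5. The sequences were searched on both strands for 6 motifs that T cell and neuropeptide gene promoters are known for: CRE (TGACGTCA), AP-1 (TGANTCA), NBRE (AAAGGTCA), Runx (TGTGGT), NFAT (GGAAAA) and an E-box (CAGCTG). The capitals mark the matches.
C2cd4b, chr9:67759187-67759486, plus strand: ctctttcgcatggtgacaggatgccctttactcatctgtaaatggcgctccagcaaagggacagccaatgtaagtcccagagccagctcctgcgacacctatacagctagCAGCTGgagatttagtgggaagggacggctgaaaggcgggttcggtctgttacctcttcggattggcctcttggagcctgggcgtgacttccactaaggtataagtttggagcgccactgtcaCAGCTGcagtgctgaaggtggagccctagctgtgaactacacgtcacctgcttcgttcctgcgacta
Gpm6b, chrX:166238693-166238992, plus strand: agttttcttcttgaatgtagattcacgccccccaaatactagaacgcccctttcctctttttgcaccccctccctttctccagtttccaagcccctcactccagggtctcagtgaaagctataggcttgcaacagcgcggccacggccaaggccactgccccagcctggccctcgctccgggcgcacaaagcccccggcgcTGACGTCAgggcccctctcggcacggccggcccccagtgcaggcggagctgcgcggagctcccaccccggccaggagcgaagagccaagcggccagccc
Ramp1, chr1:91179572-91179871, plus strand: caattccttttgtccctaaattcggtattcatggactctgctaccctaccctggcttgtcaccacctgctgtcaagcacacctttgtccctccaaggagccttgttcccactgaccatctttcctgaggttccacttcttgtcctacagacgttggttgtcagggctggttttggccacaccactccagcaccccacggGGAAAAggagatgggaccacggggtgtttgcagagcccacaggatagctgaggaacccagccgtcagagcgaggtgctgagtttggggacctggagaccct
The C2cd4b sequence held 2 E-box matches, a motif found in 16.3% of the 32851 promoters of the table. The Gpm6b sequence held 1 full CRE match, found in 1.79% of promoters, and the Ramp1 sequence 1 NFAT match, found in 23.4%. No motif was shared by the 3 sequences, and a match is a description of letters and not a site of binding.

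In the deleted day 30 library, Penk had 42.0 CPM (90 UMIs; 95% exact Poisson interval 33.8 to 51.7), against 1.29 CPM in sufficient cells at day 30 (2 UMIs in 1 cell). At day 7 it had 0 UMIs in deleted cells, 0 in sufficient cells and 6 in wild type cells, all 6 in 1 cell. The deleted day 30 library was therefore the only GP66+ library with Penk in more than 1 cell, and there the 90 UMIs came from 33 of 736 cells, with up to 19 in a cell. Intervals and floors here cover counting error only, since cells of 1 library are not replicates, and a higher level per cell and more cells of a kind cannot be told apart from library sums.

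C2cd4b had 73.8 CPM in deleted cells at day 30 (158 UMIs in 49 cells; 62.7 to 86.2), against 5.16 CPM in sufficient cells at day 30 (8 UMIs in 6 cells). At day 7 there were 0 UMIs in deleted, 1 in sufficient and 0 in wild type cells. Like Penk, it was nearly confined to the day 30 libraries among GP66+ cells, and unlike Penk it was also nearly absent from the total libraries, with 0 and 1 UMIs. Its neighbour C2cd4a, 69558 bases away on the opposite strand, had 5 UMIs in the deleted day 30 library and 0 in the other GP66+ libraries.

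Nrn1 had 62.6 CPM in deleted cells at day 30 (134 UMIs in 62 cells; 52.4 to 74.1), against 5.80 CPM in sufficient cells at day 30 (9 UMIs in 6 cells). At day 7 it had 1.47 CPM in deleted cells (13 UMIs), against 0.481 CPM in sufficient cells (6 UMIs) and 0.350 CPM in wild type cells (5 UMIs). The order by genotype was thus the same on both days, at a far lower level on day 7.

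Ramp1 had 53.7 CPM in deleted cells at day 30 (115 UMIs in 57 cells; 44.3 to 64.5), against 16.1 CPM in sufficient cells at day 30 (25 UMIs in 21 cells). At day 7 it had 1.36 CPM in deleted cells (12 UMIs), against 4.73 CPM in sufficient cells (59 UMIs) and 7.62 CPM in wild type cells (109 UMIs). The deleted library was the higher at day 30 and the lowest at day 7.

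Gpm6b had 35.0 CPM in deleted cells at day 30 (75 UMIs in 48 cells; 27.5 to 43.9), against 33.5 CPM in sufficient cells at day 30 (52 UMIs in 35 cells). At day 7 it had 0.339 CPM in deleted cells (3 UMIs), against 8.26 CPM in sufficient cells (103 UMIs) and 13.2 CPM in wild type cells (189 UMIs). The day 30 data go against counting Gpm6b as a gene of deleted cells: its level there was that of the sufficient library within counting error, and with at most 5% mitochondrial UMIs per cell it had 26.8 CPM in deleted and 37.2 CPM in sufficient cells.

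**Figure D1:**
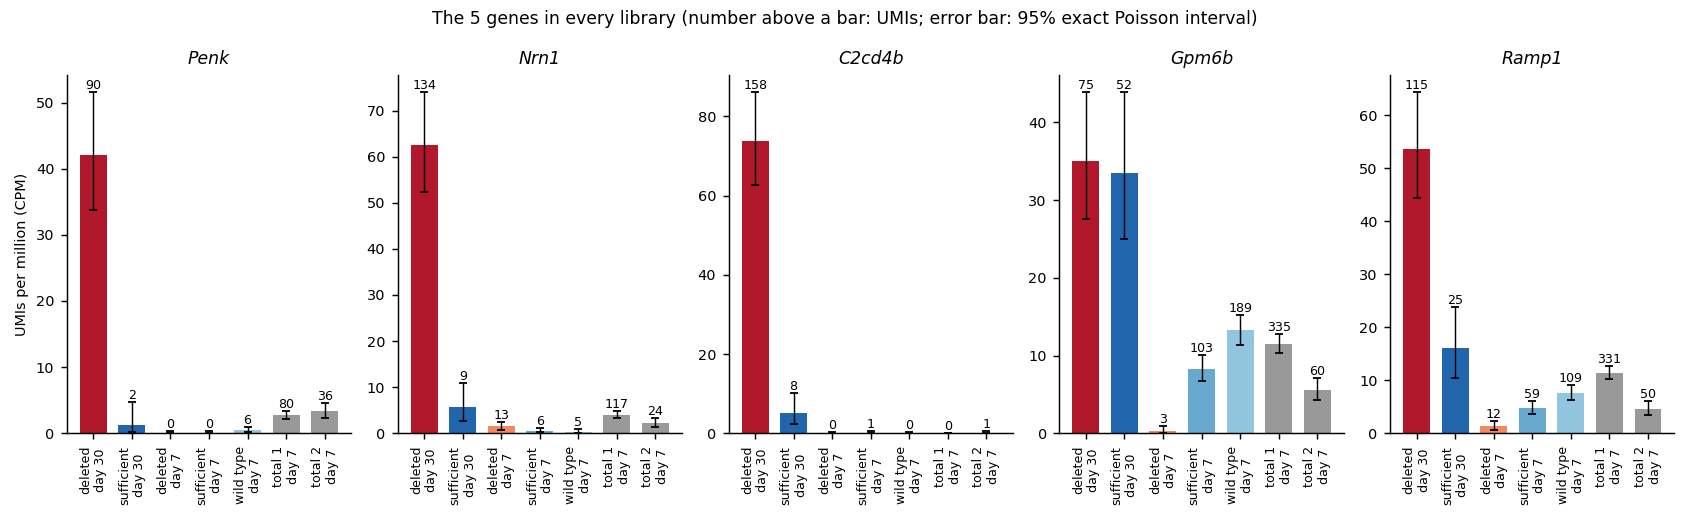
Level of each of the 5 genes in CPM (bars, 95% exact Poisson intervals, UMIs above the bars) in the 5 GP66+ libraries and the 2 total libraries; each panel has its own axis. Penk, Nrn1 and C2cd4b stand out in deleted day 30 cells at 42.0, 62.6 and 73.8 CPM, while Gpm6b is at 35.0 CPM in deleted and 33.5 CPM in sufficient cells at day 30.

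As ratios of deleted to sufficient cells at day 30, with exact conditional binomial intervals, Penk was 32.6-fold higher (8.77 to 273, with only 2 UMIs in sufficient cells), C2cd4b 14.3-fold (7.09 to 33.7), Nrn1 10.8-fold (5.52 to 24.1), Ramp1 3.33-fold (2.15 to 5.36) and Gpm6b 1.05-fold (0.724 to 1.52). Of the 9555 genes with at least 10 UMIs in the 2 libraries together, 3.28% were at least 4-fold higher and 0.492% at least 4-fold lower in deleted cells, and Penk, C2cd4b and Nrn1 were among the higher; the 5 genes were chosen on this contrast, so nothing is read from that count. Within the deleted genotype, day 30 against day 7, Penk and C2cd4b had 0 UMIs at day 7. Set against a floor of 3 UMIs for the whole day 7 library, Penk was 123.9-fold and C2cd4b 217.5-fold higher. The lower ends of their exact intervals were 98.7-fold and 174.8-fold. Nrn1 was 42.6-fold higher at day 30 (24.1 to 82.0), Ramp1 39.6-fold (21.8 to 78.8) and Gpm6b 103-fold (34.0 to 512, from 3 UMIs at day 7). In this second contrast, which shares the deleted day 30 library with the first, 5.32% of 10629 genes were at least 4-fold higher and 2.28% at least 4-fold lower at day 30.

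The genotype comparison at day 7 used no day 30 library. Ramp1 was 2.15 ± 0.46 lower in deleted cells on the log2 scale (SE, 1 library against 2, edgeR quasi-likelihood fit). Gpm6b passed the filter on low counts through the sufficient and wild type libraries alone (8.26 and 13.2 CPM, against 0.339 CPM in deleted cells). Nrn1 passed it through the deleted library alone (1.47 CPM, against 0.481 and 0.350 CPM in sufficient and wild type cells). The fitted differences and p of Gpm6b and Nrn1 are therefore not given. The difference of Ramp1 did not pass the threshold of 0.05, nor did that of Zbtb7b, and Penk and C2cd4b had too few UMIs to be tested. With 1 residual degree of freedom edgeR called 0% of the 11180 genes higher and 0% lower, with 833 higher and 1026 lower at an unadjusted p under 0.05, while DESeq2 called 161 higher and 238 lower. The deleted arm is 1 library, with 3 Gpm6b UMIs. The spread comes from sufficient and wild type libraries that also differ in the Cre and the CD4 gate, so no genotype call is made for Gpm6b, Ramp1 or Nrn1. The direction of Gpm6b was the same against each of the sufficient and wild type libraries alone.

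The total libraries show levels of the genes in CD8-like and CD4-like cells at day 7. CD8-like cells held UMIs of Cd8a or Cd8b1 but none of Cd4, and in CD4-like cells it was the reverse. UMIs of the genes in the total mix were also part of the choice, so these levels are not independent of it. Gpm6b had 0.889 and 0.719 CPM in the CD8-like cells of total libraries 1 and 2, against 27.9 and 10.1 CPM in the CD4-like cells. Nrn1 had 1.14 and 0.539 CPM in CD8-like cells, against 6.79 and 4.32 CPM in CD4-like cells. Ramp1 had 4.13 and 1.62 CPM in CD8-like cells, against 13.1 and 6.84 CPM in CD4-like cells. Penk had 0.190 and 0 CPM in CD8-like cells, against 2.78 and 9.72 CPM in CD4-like cells, where 13 of its 18 UMIs in library 1 and 16 of its 27 in library 2 came from 1 cell each. For all 4 genes the 2 CD8-like values lay below both CD4-like values. Cells in neither class, which held both kinds of UMI or none, had the highest Ramp1 in each library, at 26.2 and 9.01 CPM.

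In an edgeR fit with the library as a block and 1 residual degree of freedom, Ramp1 was 1.64 ± 0.24 lower in CD8-like cells. This is on the log2 scale (SE, 2 libraries, edgeR adjusted p = 8.3e-10), and it is not independent of the choice of the genes. Penk, Gpm6b and Nrn1 passed the filter on low counts through the CD4-like cells alone, so their fitted differences and p are not given. Few CD4-like cells held Penk, and it no longer entered when the 2% of cells with the most UMIs were left out. C2cd4b, with 1 UMI in the total libraries, was not tested. In the same fit 18.1% of 10083 genes were called higher and 18.8% lower in CD8-like cells, 1824 and 1891 genes, a split that became 1200 and 2155 when libraries were scaled by their totals alone. Without the block the Ramp1 call was lost (edgeR adjusted p = 0.116) and the number of calls dropped to 1006.

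**Figure D2:**
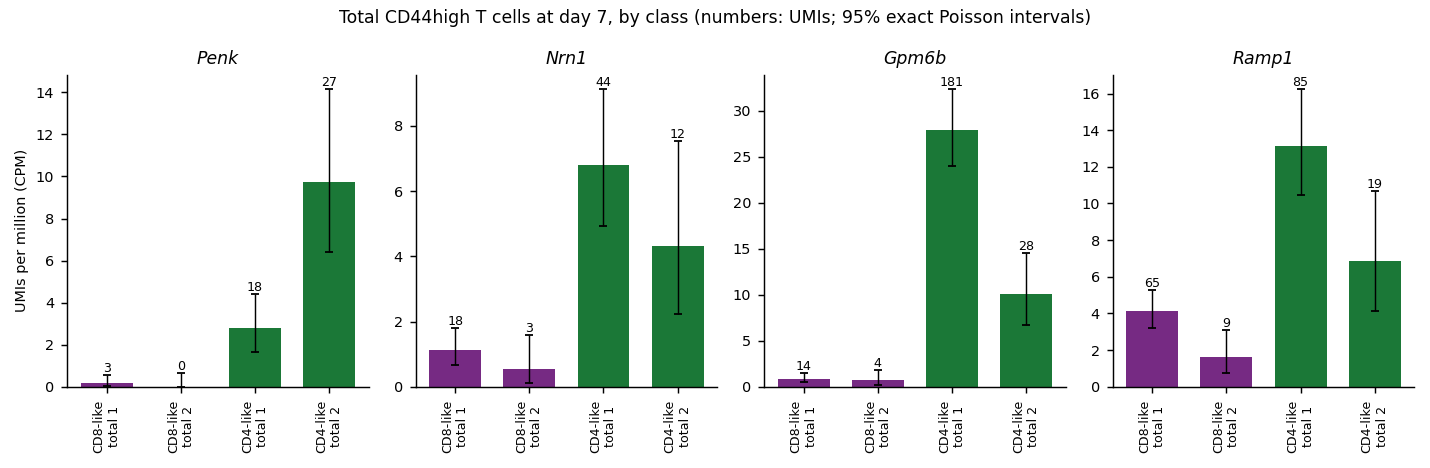
Level of Penk, Nrn1, Gpm6b and Ramp1 in CPM in CD8-like and CD4-like cells from both day 7 total libraries (95% exact Poisson intervals, UMIs above the bars). The CD8-like bars lie below the CD4-like bars in each panel, with Gpm6b at 0.889 and 0.719 CPM in CD8-like cells, against 27.9 and 10.1 CPM in CD4-like cells.

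The 2 Thpok-carrying GP66+ libraries of day 7 were also set against the CD4-like cells of both total libraries. Penk had 0 and 0.420 CPM in the sufficient and wild type GP66+ cells, against 2.78 and 9.72 CPM in the CD4-like cells of total libraries 1 and 2, where 5 and 3 cells held it. Nrn1 had 0.481 and 0.350 CPM in the same GP66+ cells, against 6.79 and 4.32 CPM in the CD4-like cells. Both had at most 6 UMIs in a GP66+ library and entered the fit through the total libraries, so no call is drawn for them. Gpm6b was 0.85 ± 0.50 lower in GP66+ cells on the log2 scale (SE, 2 against 2 libraries; edgeR, adjusted p = 0.512) and Ramp1 0.71 ± 0.40 lower (edgeR, adjusted p = 0.495). Neither passed the threshold, against 0.319% of 10648 genes called higher and 0% lower (725 higher and 667 lower at an unadjusted p under 0.05). DESeq2 called 145 genes higher and 61 lower.

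Within the total libraries, the cells that held Penk often held Ikzf2, which encodes Helios, a transcription factor of regulatory T cells. In total library 1, 19 of 21 cells with a Penk UMI also held Ikzf2 (90.5%; exact binomial interval 69.6 to 98.8), against 19.1% of the cells without Penk, and in library 2 it was 4 of 5 cells, against 22.4%. Foxp3, the lineage factor of regulatory T cells, was found in 8 of the 21 Penk cells (38.1%) and 1 of the 5, against 2.11% and 1.23% of the cells without Penk. For Nrn1 the share with Ikzf2 was 60.5% and 69.2% in the 2 libraries, for Gpm6b 57.9% and 51.1%, and for Ramp1 46.7% and 35.7%. Foxp3 was found in 13.6% and 23.1% of cells with Nrn1, against 2.08% and 1.13% of cells without it, and in 5.28% and 2.38% of cells with Ramp1, against 2.10% and 1.25%. Gpm6b cells held Foxp3 at 2.97% and 2.22%, near the cells without Gpm6b at 2.20% and 1.25%. Of all cells of the 2 libraries, 3236 of 6290 and 984 of 1964 were CD8-like, and Ikzf2 was 2.14 ± 0.09 lower on the log2 scale in CD8-like than in CD4-like cells (edgeR, adjusted p = 2.9e-69); the part of lineage in these shares was not tested.

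In the deleted day 30 library the 5 genes were often found in the same cells. This overlap was looked at when the genes were chosen, so it is a description and not a separate result about them. At least 1 of them had a UMI in 145 of 736 cells (19.7%) and 2 or more in 73 cells (9.92%; 7.86 to 12.3), with 17 cells holding 3 of the genes, 4 cells 4 and 2 cells all 5. In the sufficient day 30 library 10 of 725 cells held 2 or more (1.38%; 0.663 to 2.52). After each cell was thinned to 1500 UMIs, which left out 46 deleted and 153 sufficient cells below that depth, the shares were 5.80% (4.17 to 7.81) in deleted and 1.22% (0.493 to 2.51) in sufficient cells. At day 7, 2 of 1319 deleted, 4 of 2138 sufficient and 16 of 2212 wild type cells held 2 or more.

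C2cd4b marked this overlap most plainly. Of the 49 deleted day 30 cells with C2cd4b, 42.9% also held Nrn1, against 5.97% of the cells without C2cd4b. Gpm6b was held by 40.8% of them, against 4.08%, Ramp1 by 32.7%, against 5.97%, and Penk by 28.6%, against 2.77%. The cells with C2cd4b were deeper, at a median of 2858 UMIs against 2410, and after thinning the 4 shares were between 27.8% and 30.6%, against 2.14% to 3.67%. Nrn1 and Ramp1 were also held together, with Ramp1 in 35.5% of cells with Nrn1, against 5.19% of cells without it, and after thinning in 14.7%, against 4.57%. Of the 33 cells with Penk, 18.2% held Ramp1 (6.98 to 35.5), against 7.25% of cells without Penk, and after thinning 24%, against 4.36%. All 5 UMIs of C2cd4a lay in the cells with 2 or more of the genes. In droplets of 5 to 50 UMIs of the same library, which hold free RNA, Penk and C2cd4b had 0 UMIs of 88420, where 3 UMIs would be 33.9 CPM. Nrn1, Ramp1 and Gpm6b had 5, 4 and 3 UMIs there, which is 56.5, 45.2 and 33.9 CPM and near their levels in the cells of the library; the part of free RNA in their shares of cells was not tested.

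**Figure D3:**
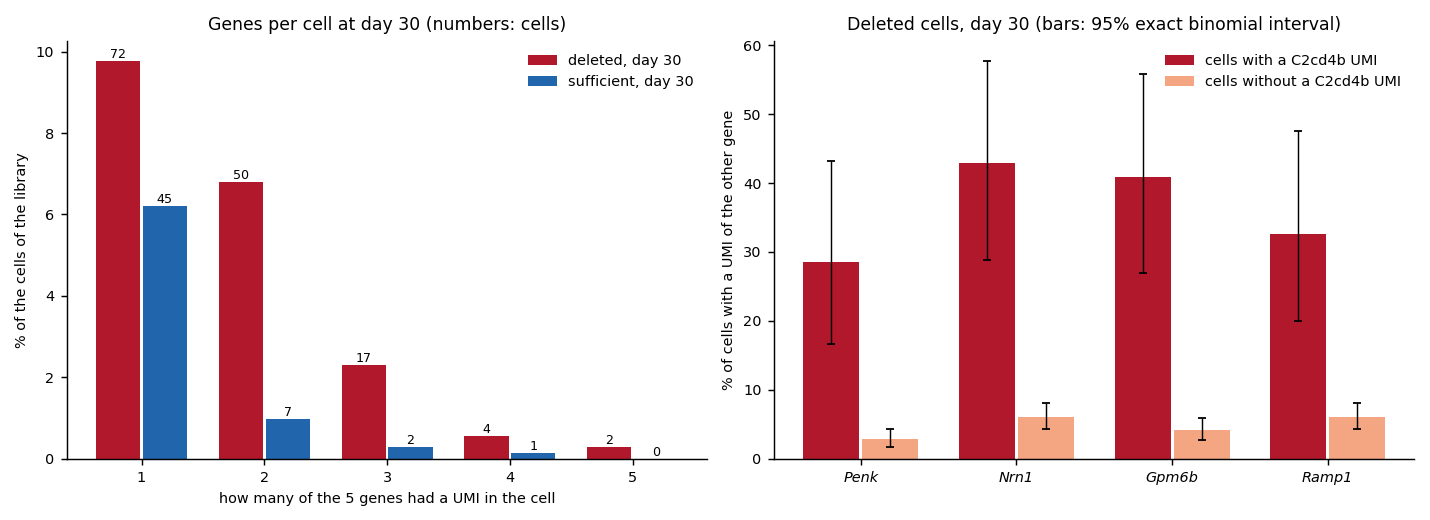
Left, the share of deleted and sufficient day 30 cells in which 1, 2, 3, 4 or 5 of the genes had a UMI (numbers of cells above the bars); right, the share of deleted day 30 cells holding each other gene, in cells with and without a C2cd4b UMI (95% exact binomial intervals). The shares of cells with C2cd4b lie between 28.6% and 42.9%, those of cells without it between 2.77% and 5.97%.

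The deleted day 30 cells that held 2 or more of the genes differed in other transcripts from the 591 cells that held none. The 8 genes with the largest ratios (20 CPM added), among those with a UMI in at least 10% of the 73 cells, were Tnfsf8, Izumo1r, Cd200, Tnfrsf4, Cd74, Cd81, Nrgn and Sostdc1. Izumo1r, which encodes folate receptor 4 of regulatory and anergic helper cells, had 614 CPM in cells with 2 or more of the genes, 385 CPM in the 72 cells with 1 and 27.1 CPM in cells with none. Tnfsf8, which encodes CD30 ligand, had 1056, 449 and 59.8 CPM in the same order. Cd200, which encodes an inhibitory surface ligand, had 350, 136 and 9.44 CPM, and Tnfrsf4, which encodes Ox40, the receptor whose promoter drives the Cre, had 366, 88.2 and 21.4 CPM. All of these stepped down with the number of genes held, where the drop from 2 or more to none was fixed by how they were picked.

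The anergy and regulatory list of 13 genes summed to 3441 CPM in cells with 2 or more of the genes, 2443 CPM in cells with 1 and 637 CPM in cells with none. It holds Izumo1r, Cd200 and Tnfrsf4, already named, and also Ikzf2, which had 581, 485 and 73.6 CPM. Foxp3 had 4 UMIs in the 73 cells with 2 or more, 9 in the 72 cells with 1 and 2 in the 591 cells with none. The whole deleted day 30 library had 15 Foxp3 UMIs, against 0 in the sufficient day 30 library. Most cells with the genes held no Foxp3 UMI, but at counts this low a cell without a UMI is not shown to lack the transcript. The follicular helper list of 11 genes summed to 2600, 1885 and 846 CPM, and Tnfsf8, Sostdc1 and Slamf6, which had 389, 241 and 76.1 CPM, are in that list.

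The sum of the list of 16 CD8 and cytotoxic genes ran the other way, at 4481 CPM in cells with 2 or more of the genes, 11103 CPM in cells with 1 and 31966 CPM in cells with none. Most of each sum was Ccl5, a chemokine of cytotoxic cells, at 3062, 8796 and 26464 CPM. Gzma, a granzyme, had 119, 357 and 1342 CPM. Klrd1, which encodes the natural killer receptor chain CD94, had 19.8, 56.2 and 339 CPM. Eomes was an exception, with 109, 92.3 and 56.6 CPM. By class, 46.6% of the 73 cells were CD4-like (34.8 to 58.6) and 5.48% CD8-like, against 19.3% (16.2 to 22.7) and 7.78% of the cells with none.

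Median depth moved with these sets, at 2947 UMIs in cells with 2 or more of the genes, 2774.5 in cells with 1 and 2345 in cells with none. With every cell thinned to 1500 UMIs, Izumo1r was found in 53.4% of the 73 cells, against 3.83% of cells with none, and Klrd1 in 2.74%, against 37.4%. Early response genes, which rise during tissue dissociation, summed to 9394, 9390 and 9126 CPM. Red cell genes summed to 85.8, 124 and 8369 CPM, most of it in 2 barcodes with at least 5% of their UMIs in those genes, and without those barcodes the levels of the 5 genes in the library moved by less than 1 CPM. Glial markers had 0, 0 and 7 UMIs and stromal markers 1, 0 and 1, so transcripts defining those cells were at or near 0. B cell markers had 1, 1 and 2 UMIs, and myeloid markers 115, 80.2 and 132 CPM. These comparisons are between cells of 1 library, which are not replicates, and they carry no test.

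**Figure D4:**
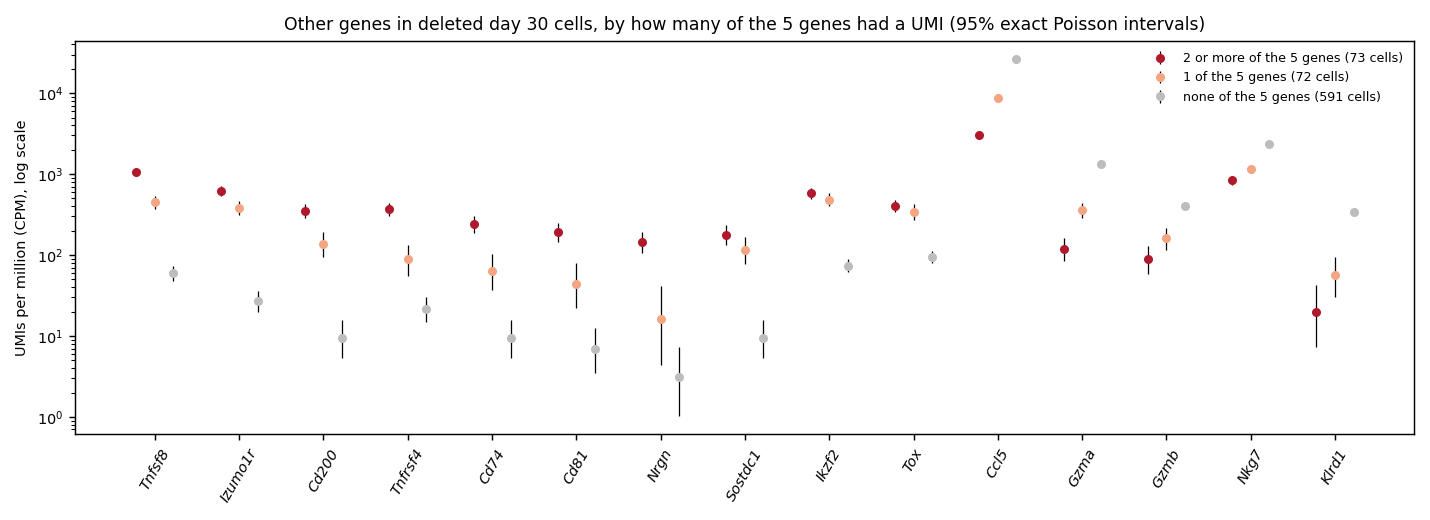
Level in CPM, on a log axis, of 15 other genes in deleted day 30 cells that held 2 or more, 1 or none of the 5 genes (points, 95% exact Poisson intervals). The 8 leading genes, which were picked for that drop, step down from 2 or more to none, as with Izumo1r at 614, 385 and 27.1 CPM. Ikzf2 and Tox also step down, and the 5 cytotoxic genes step up, as with Ccl5 at 3062, 8796 and 26464 CPM.

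Across whole libraries the leading genes did not all follow the 5 genes. Izumo1r had 152 CPM in deleted and 156 CPM in sufficient cells at day 30, and at day 7 7.35 CPM in deleted, 199 CPM in sufficient and 209 CPM in wild type cells. Tnfsf8 had 246 CPM in deleted and 593 CPM in sufficient cells at day 30. In the sufficient day 30 library, where only 10 cells held 2 or more of the genes, the anergy and regulatory list summed to 1754 CPM in those cells, 1731 CPM in the 45 cells with 1 and 846 CPM in the 670 cells with none. The follicular helper list summed to 1621, 3928 and 1898 CPM in the same sets of sufficient cells, so it was not higher in cells with 2 or more of the genes there. Nrgn, which encodes the neuronal protein neurogranin, was highest in deleted day 30 cells, with 24.7 CPM in deleted and 3.22 CPM in sufficient cells at day 30 and between 3.37 and 4.13 CPM in the 3 day 7 GP66+ libraries. Cd81, which encodes a tetraspanin, had 37.4 CPM in deleted and 7.09 CPM in sufficient cells at day 30, and at day 7 2.37 CPM in deleted, 13.9 CPM in sufficient and 17.2 CPM in wild type cells.

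Genes whose level was most like each of the 5 were ranked by Pearson correlation of log2(CPM + 5) over 9 sums (5 GP66+ libraries and the CD8-like and CD4-like cells of each total library, which come in pairs from 1 capture) among 5996 genes with at least 30 UMIs in the deleted day 30 library. The 3 most like Penk were Nrgn (r = 0.94), Sfi1 and Zzef1, and the 3 most like Nrn1 were Metrnl (r = 0.97), Itgb8 and Nrgn. C2cd4b was most like Ier5l (r = 0.99), Metrnl and Tnfsf4. Gpm6b was most like Slc9a9 (r = 0.97), Setd5 and Gmip, and Ramp1 most like Mgmt (r = 0.96), 1700019D03Rik and Tnrc6b. No gene stood in the lists of both Gpm6b and the others. Among the 5 genes themselves, r was lowest between Penk and Gpm6b (0.57) and highest between Nrn1 and C2cd4b (0.94). With log2(CPM + 1), 0 of the 3 genes named for Nrn1 and 1 of the 3 for Penk were retained. The correlation does not measure the size of a change. Of the genes most like Penk, Zzef1 had 40.2 CPM in deleted and 27.7 CPM in sufficient cells at day 30, and Nrgn 24.7 and 3.22 CPM.

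The partner genes of Ramp1 differed in pattern. Calcrl, the receptor chain, had the same order as Ramp1 on each day, with 10.3 CPM in deleted cells at day 30 (22 UMIs), against 2.58 CPM in sufficient cells (4 UMIs), and at day 7 2.60 CPM in deleted, 3.93 CPM in sufficient and 5.88 CPM in wild type cells. Ramp3, which turns Calcrl into a receptor of adrenomedullin, had 28.0 CPM in deleted cells at day 30 (60 UMIs; 21.4 to 36.1), against 193 CPM in sufficient cells (299 UMIs; 171 to 216), and at day 7 1.36 CPM in deleted, 17.0 CPM in sufficient and 39.1 CPM in wild type cells. Ramp3 was thus lower in deleted cells on both days, where Ramp1 was lower only at day 7. Ramp2, the third chain of the family, had 0 UMIs in both day 30 libraries, where 3 UMIs would be 1.40 CPM in the deleted one.

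Calca, which encodes CGRP itself, had 10.7 CPM in deleted cells at day 30 (23 UMIs in 11 cells), against 1.93 CPM in sufficient cells (3 UMIs), and 0 UMIs in the 3 day 7 GP66+ libraries. It did not gather in the cells of the 5 genes: 1 of the 73 cells with 2 or more genes (1.37%), 1 of the 72 with 1 (1.39%) and 9 of the 591 with none (1.52%) held it. Ramp3 was found in 15.1% of the cells with 2 or more genes, 8.33% of cells with 1 and 4.57% of cells with none.

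**Figure D5:**
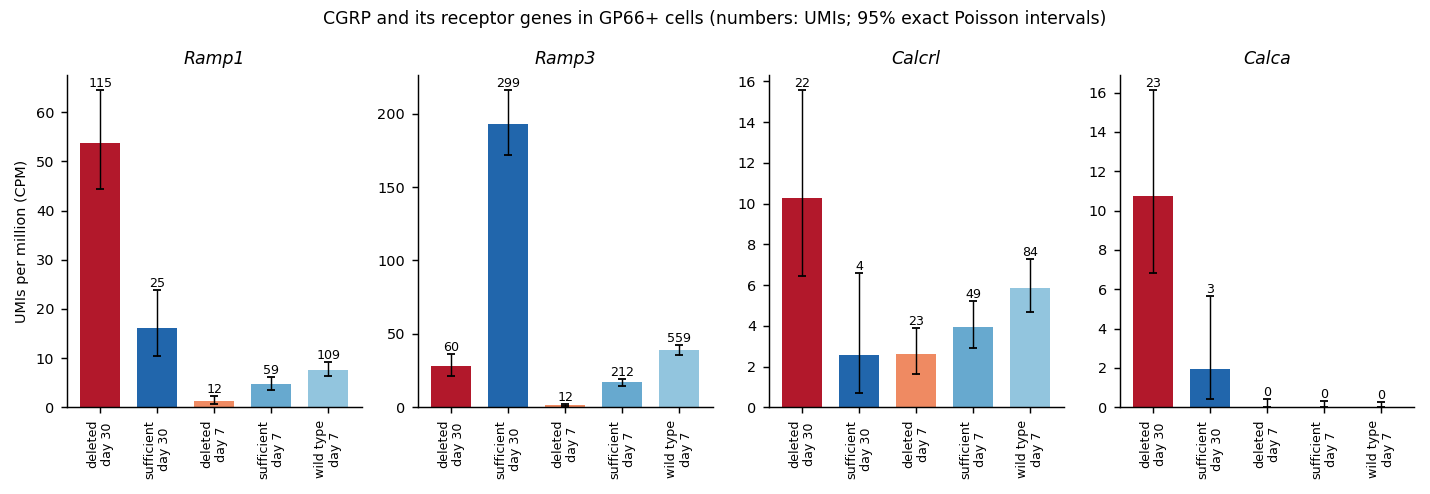
Level in CPM of Ramp1, Ramp3, Calcrl and Calca in the 5 GP66+ libraries (bars, 95% exact Poisson intervals, UMIs above the bars; each panel has its own axis). At day 30 Ramp1 is higher in deleted cells (53.7 against 16.1 CPM in sufficient cells) and Ramp3 lower (28.0 against 193 CPM in sufficient cells).

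Of 25 listed genes of opioid precursors, their processing and their receptors, 11 had 0 UMIs in the deleted day 30 library, against 15 in the sufficient one, and 9 held at least 10 UMIs over the GP66+ libraries together. Furin, a protease of the secretory path, had 76.6 CPM in deleted and 96.0 CPM in sufficient cells at day 30, and at day 7 27.2 CPM in deleted, 130 CPM in sufficient and 72.0 CPM in wild type cells. Pcsk1, the protease that cuts proenkephalin in neurons and endocrine cells, had 3 UMIs in deleted and 0 in sufficient cells at day 30. Neither the level of Furin nor that of Pcsk1 stood out beside Penk in deleted day 30 cells.

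Over both days, with all 5 GP66+ libraries in 1 edgeR fit, 0 of 8 tested genes of the opioid list, 0 of 11 of the CGRP list and 0 of 3 of the list of other neuropeptides and receptors passed the test by genotype, against 0.731% of 10812 genes called higher and 0.379% lower in deleted cells. Ramp3 came nearest, at 3.57 ± 0.51 lower in deleted cells on the log2 scale (edgeR, adjusted p = 0.0561), and was the 1 gene of these lists that DESeq2 called (adjusted p = 9.2e-11). By day, 5 of the 11 CGRP genes were higher at day 30 and 1 of the 8 opioid genes was lower, against 9.97% of genes called higher and 11.9% lower. Calca, Ramp3, Crem, Pde4b and Pde4d were the 5, with log2 differences, Calca aside, from 1.24 ± 0.28 for Pde4d (edgeR, adjusted p = 0.0357) to 3.47 ± 0.44 for Ramp3 (edgeR, adjusted p = 0.0129). Calca, with 0 UMIs at day 7, entered the fit through the day 30 libraries alone, so its fitted difference is not given, and DESeq2 did not call it. Crem, a transcription factor that cyclic AMP induces, was 2.44 ± 0.21 higher at day 30 (edgeR, adjusted p = 0.00892). In the same fit 10 of 13 early response genes were also called higher at day 30. That list summed to 9195 CPM in deleted and 9656 CPM in sufficient cells at day 30. At day 7 it summed to 1790 CPM in deleted, 3291 CPM in sufficient and 2466 CPM in wild type cells. Whether the CGRP genes moved apart from that list was not tested. Of the list of other neuropeptides and receptors, Vipr1, a receptor of vasoactive intestinal peptide, was 2.92 ± 0.75 higher (edgeR, adjusted p = 0.0488). None of these calls was made when the deleted day 30, the sufficient day 30 or the deleted day 7 library was left out, since the count over all genes then dropped to 0. In CD8-like against CD4-like cells of the total libraries, 3 of 6 opioid list genes (Furin, Ctsl and Cpd) and 1 of 10 CGRP genes (Ramp3, lower by 3.86 ± 0.31 on the log2 scale; edgeR, adjusted p = 8.6e-28) were lower, against 18.8% of all genes tested. DESeq2 called Furin and Ramp3 of these.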

How the data were processed

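UMI counts per gene and barcode were deposited with no normalization, as unfiltered 10x matrices with empty droplets. The submitters' processing notes name bcl2fastq 2.17, Cell Ranger and the build mm10; whether strand was used in counting is not stated there. A barcode was kept at 10% or more of the 99th percentile of its well's top 3000 barcodes, if it had 500 genes or more and no more than 10% of its UMIs from mitochondrial genes; no doublet caller was run. In the total libraries, 555 and 175 cells with UMIs of 2 or more B cell or 2 or more myeloid markers were left out, a rule that GP66+ cells were not put to. Sums of UMIs over a library or a class of its cells went into edgeR 4.0.16 (quasi-likelihood test, TMM, filterByExpr, Benjamini-Hochberg at 0.05) in R 4.3.3; DESeq2 1.42.0 was an alternative. The SE of a log2 difference is its size over the root of the test's F. The code was tested on simulated data. The 5 genes, the gene lists and the tests were chosen with earlier results of these data known. Genes named in the text are the 5, Zbtb7b, list members with at least 10 UMIs in the GP66+ libraries (up to 4 a list, plus those passing a test), the 3 genes most like each of the 5 and the 8 leading genes of cells holding 2 or more; Pcsk1, Ramp2, C2cd4a, Foxp3, Eomes, Klrd1, Gzma and the overlapping genes were named after their values were seen. Nothing says that libraries of a group came from separate mice, so p-values of fits without a block measure only the spread between these libraries. In the fit of CD8-like against CD4-like cells the library is a block. The p-values of that fit rest mostly on a spread pooled over all genes, since 2 captures leave each gene 1 residual degree of freedom. They say little of how the class difference of 1 gene varies between captures, and nothing of mice. One gene of the list of other neuropeptides and receptors is not reported here.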

Additional observations from a re-analysis of the deposited data

Results flagged for a closer look

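The genotype differences of Ramp1 had opposite signs on the 2 days, and those of Gpm6b were near 0 at day 30 and negative at day 7. For Ramp1, deleted minus sufficient cells was 37.6 CPM at day 30, and at day 7 deleted minus sufficient cells was -3.38 CPM and deleted minus wild type cells -6.27 CPM. For Gpm6b, deleted minus sufficient cells was 1.51 CPM at day 30, within counting error and reversed with at most 5% mitochondrial UMIs, and at day 7 deleted minus sufficient cells was -7.92 CPM and deleted minus wild type cells -12.9 CPM. The difference between the days was not tested for either gene.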

How the results depend on the processing

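Of 98 alternative values for the log2 differences of the 5 genes, 87 kept their direction and, where an adjusted p was given, their side of the threshold. Values with no adjusted p were counted by direction alone. The 98 include fits of genes whose fitted differences are not given above. The difference of Gpm6b between GP66+ and total CD4-like cells was 0.20 higher when total replicate 1 was left out and -1.39 without total replicate 2, the range over the libraries left out. The number of genes called at day 7 by genotype, 0, became 399 with DESeq2, 72 with library totals and 544 with no filter. By genotype over both days it was 120 (79 higher and 41 lower) and became 473 with DESeq2 (255 and 218), 791 with no filter and 71 with a barcode minimum of 20%; library totals gave 86 higher and 25 lower. Leaving out each library gave between 0 and 417 by genotype, 0 without the deleted day 30, sufficient day 30 or deleted day 7 library and 417 without the wild type one, and between 0 and 2905 by day, against 2361 (1078 higher and 1283 lower; 682 and 1429 with library totals). By lineage it was 3715, with DESeq2 1270 and with no replicate block 1006. Between GP66+ and total CD4-like cells it was 34, became 206 with DESeq2 and 492 with no filter, and lay between 0 and 380 with a library left out. The share of deleted day 30 cells with 2 or more of the genes dropped to 5.80% on thinning to 1500 UMIs, and the other 9 alternative shares stayed within counting error. With at most 5% mitochondrial UMIs, Ramp1 had 41.7 CPM in deleted and 15.5 CPM in sufficient day 30 cells, and Gpm6b 26.8 and 37.2 CPM, which turns the direction of its difference. The alternatives for the 2 contrasts at 4-fold and the removal of red cell barcodes were chosen after seeing the data; the cause of these moves was not tested.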

Other observations

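Gnas, which encodes the G protein subunit that CGRP receptors act through, differed between the 2 Thpok-carrying day 7 GP66+ libraries, with 721 CPM in sufficient and 154 CPM in wild type cells. Of the 80 Penk UMIs in total library 1, 59 lay in cells with neither a Cd4 nor a Cd8 UMI or with both, where Penk had 8.56 CPM, and 20 of them in 1 cell. Hemoglobin and other red cell genes had 13357 UMIs in the deleted day 30 library and 3 in the sufficient one.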
